A study of Homo sapiens with 9 samples.

Results

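The loci described here are those of 7 genes that glucocorticoid hormones are known to regulate, or that carry the hormone's signal: NR3C1, FKBP5, PER1, DUSP1, KLF9, ZBTB16 and ZFP36. For each gene a window of 50 to 230 kb was set by position in the hg19 build, 880 kb in all, and every peak of the chromatin immunoprecipitation (ChIP-seq) of EGR1 with its summit in a window was taken. The windows held 22 of 12340 peaks listed for induced cells given clobetasol and 23 of 16285 peaks listed for induced cells. No window was without a peak in either list.

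The cells were BJ-hTert-B-RAF-V600E, a line of human fibroblasts in which doxycycline turns on the oncoprotein BRAF V600E. Induced cells with clobetasol received doxycycline at 1000 ng/mL and clobetasol at 2 nM, induced cells received doxycycline at 1000 ng/mL and DMSO, and proliferating cells received ethanol and DMSO, for 24 h in each case and with 3 libraries per group. The titles name DMSO for the clobetasol libraries too, so whether these cells also received it is not settled. The 3 libraries of a group were pooled by the authors before peaks were called against the pool of proliferating cells, so each value rests on 1 pool per group and cannot be set against the spread between replicates. Every group carried the same transgene in 1 fibroblast line, and the labels do not say whether the line is a clone or whether each library had its own culture.

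EGR1 is a zinc finger transcription factor that is rapidly induced by MAP kinase signalling and binds GC-rich DNA. Clobetasol is a synthetic ligand of the glucocorticoid receptor, which on binding a glucocorticoid enters the nucleus and switches on genes such as FKBP5, PER1, KLF9, ZBTB16, DUSP1 and ZFP36. Several of these genes feed back on signalling: FKBP5 on the receptor itself, DUSP1 on the MAP kinases. The peaks show EGR1 antibody signal and not that of the glucocorticoid receptor, and a window can hold more than 1 gene, so a peak is given here to a window and not to a promoter. In the RefSeq gene order the protein-coding neighbours of PER1 are HES7 and VAMP2, those of ZFP36 are MED29 and PLEKHG2, and those of DUSP1 are NEURL1B and ERGIC1.

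Promoters of 250 bases before to 50 after each start site were available from RefSeq (GRCh38.p14) for 6 of the 7 genes, as 13 sequences; the other gene is ZBTB16. They were searched on both strands for GCGNGGGCG, a form of the site bound by the EGR family, which 9.43% of all 35116 RefSeq promoters held, and 1 of the 13 matched. That sequence is a promoter of FKBP5, at chr6:35688866-35689165 on the minus strand, with the match 24 bases after the start site. The shorter GNGGGCG, which forms the last 7 letters of the longer motif and was added after the longer search, was held by 7 of the 13, from 4 genes, and by 39.9% of all promoters. The PER1 promoter, at chr17:8152355-8152654 on the minus strand, is shown beside it because the PER1 window held the most peaks; it was chosen after those values were seen. Both are written 5′ to 3′ along the gene, and capitals mark every match to either motif.

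FKBP5 promoter: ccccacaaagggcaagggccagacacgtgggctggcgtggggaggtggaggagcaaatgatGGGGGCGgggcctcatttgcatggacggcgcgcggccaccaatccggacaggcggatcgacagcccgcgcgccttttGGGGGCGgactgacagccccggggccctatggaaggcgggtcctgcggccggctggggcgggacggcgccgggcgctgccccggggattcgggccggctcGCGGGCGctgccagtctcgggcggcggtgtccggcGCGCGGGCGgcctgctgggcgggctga

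PER1 promoter: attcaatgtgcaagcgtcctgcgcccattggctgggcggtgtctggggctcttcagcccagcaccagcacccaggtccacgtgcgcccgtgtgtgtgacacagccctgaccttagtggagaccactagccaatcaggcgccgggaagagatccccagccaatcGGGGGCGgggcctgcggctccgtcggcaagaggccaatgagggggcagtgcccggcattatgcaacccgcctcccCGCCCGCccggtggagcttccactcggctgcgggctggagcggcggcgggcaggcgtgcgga

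The FKBP5 promoter held 4 matches to the shorter motif, 1 of them within the longer one, and the PER1 promoter held 2, both outside it. The palindromic response element of the glucocorticoid receptor was in 0 of the 13 sequences and in 0.390% of all promoters. Whether a peak lies on any of these promoters was not determined, because the peaks are in hg19 and the promoters in GRCh38.

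Peaks were unevenly spread among the 7 windows. The PER1 window held 8 peaks with clobetasol and 9 without it, that of ZFP36 held 4 and 6, and that of FKBP5 held 4 and 3. The KLF9 window held 3 with clobetasol and 1 without it, and the NR3C1 window held 1 and 2. The DUSP1 and ZBTB16 windows each held 1 peak in each list. Per 100 kb of window this is 13.3 with clobetasol and 15.0 without it at PER1, 8 and 12 at ZFP36, and 0.435 in both lists at ZBTB16.

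**Figure D1:**
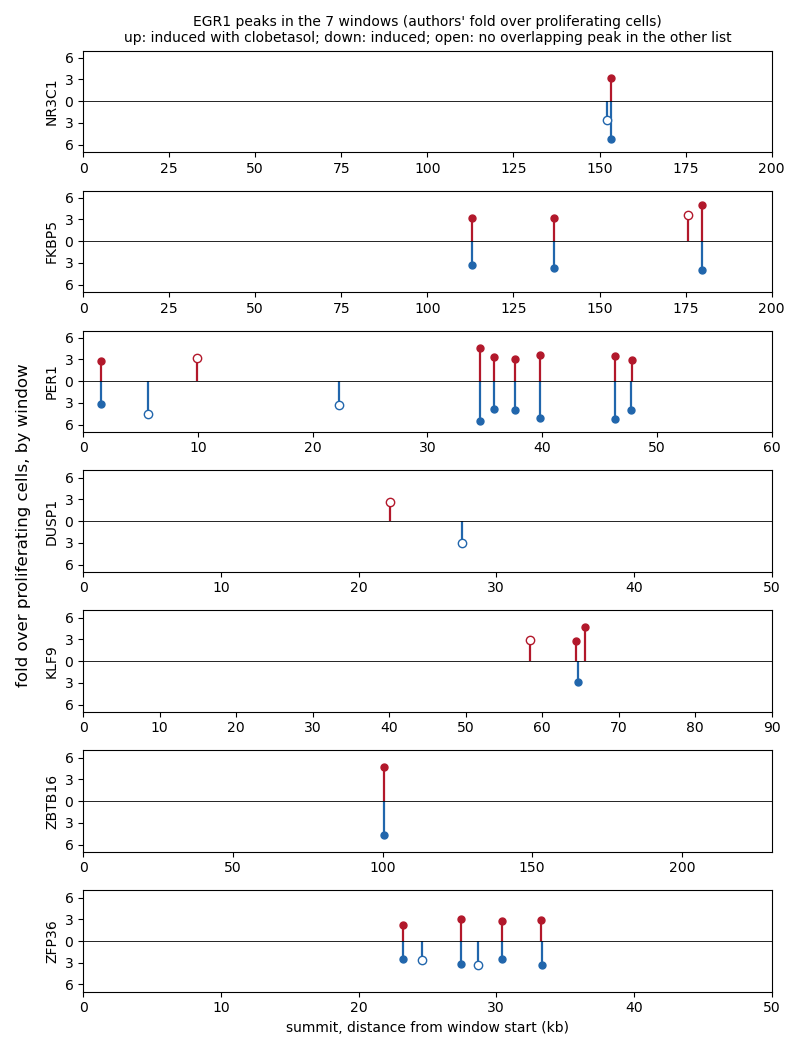
Each panel is 1 window, with the distance of the summit from the window start in kb on the x axis and the authors' fold over proliferating cells on the y axis, upward for induced cells with clobetasol and downward for induced cells. Open circles mark peaks with no overlapping peak in the other list: 4 with clobetasol and 6 without it, including both DUSP1 peaks.

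The fold of a peak is the authors' value for the treated pileup over the local level in proliferating cells. It is given to describe peaks within each list, and folds of the 2 lists set side by side are not a test between them. Over the windows it ran from 2.19 to 4.94 with clobetasol, with a median of 3.18, against a median of 3.16 over that whole list. In the induced list it ran from 2.44 to 5.50 with a median of 3.36, against 3.64 over the whole list. The gains over proliferating cells at these loci were thus close to the median of each list, and the highest fold at any of the 7 was that of a PER1 peak in induced cells.

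Many of the sites already had a raised level in proliferating cells. In each list the lowest control level was taken as 1 unit, and more than 5 such units lay under 8 of 22 peaks with clobetasol (22.0% of that list) and under 8 of 23 induced peaks (17.9% of that list). The control level ranged from 1.02 times the lowest, at ZBTB16, to 14.1 times, at ZFP36. There is no input control, so EGR1 signal in proliferating cells cannot be told from other background at these sites.

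Most induced peaks in the windows had a counterpart with clobetasol. Of the 23, 17 overlapped a clobetasol peak by at least 1 bp (73.9%, 95% Wilson interval 53.5 to 87.5, for counting error only). Over all induced peaks the share was 64.0%, and the difference was not tested. The other 6 induced peaks in the windows had no counterpart, as did 36.0% of the list. The Wilson interval treats peaks as independent, though 9 of the 23 lay in the PER1 window and 6 in that of ZFP36. Among induced peaks with a −log10 q of at least 10, the share was 15 of 16 in the windows and 80.5% over the list. In the other direction, 18 of 22 clobetasol peaks overlapped an induced peak (81.8%, interval 61.5 to 92.7), against 86.4% of that list, and 4 did not, against 13.6%.

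Fragments at each summit were recovered from the deposited fold and −log10 p, so that the pools could be compared at the 17 shared sites after division by their depth ratio of 1.21. Summits of the paired peaks lay a median of 10 bp apart. The depth-scaled ratio of clobetasol to induced fragments had a median of 0.857 over the 17 sites (range 0.607 to 1.19), against 0.799 over all 10429 shared sites (interquartile range 0.707 to 0.911). It was below 1 at 13 of 17 sites, and over all shared sites at 87.4%. With p-values of the exact binomial test (two-sided) adjusted by Benjamini and Hochberg over all 10429 shared sites, 3 of the 17 were lower with clobetasol, where 22.6% of all shared sites were, and 0 were higher, where 0.384% were. The 3 lower sites were 1 at NR3C1 and 2 in the PER1 window, and these calls rest on the division by the depth ratio. Without it, 0 of the 17 sites were called lower and 2 higher, at FKBP5 (ratio 1.44) and KLF9 (1.37). The median ratio was then 1.04, against 0.971 over all shared sites. The share of all shared sites called in that setting was not counted. The exact 95% interval of the ratio lay below 1 at the same 3 sites, and over all shared sites at 35.5%; it lay above 1 at 0 of the 17, where 0.662% did. This test compares 1 pool with another and not the conditions, and how much DNA each immunoprecipitation yielded is not known.

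**Figure D2:**
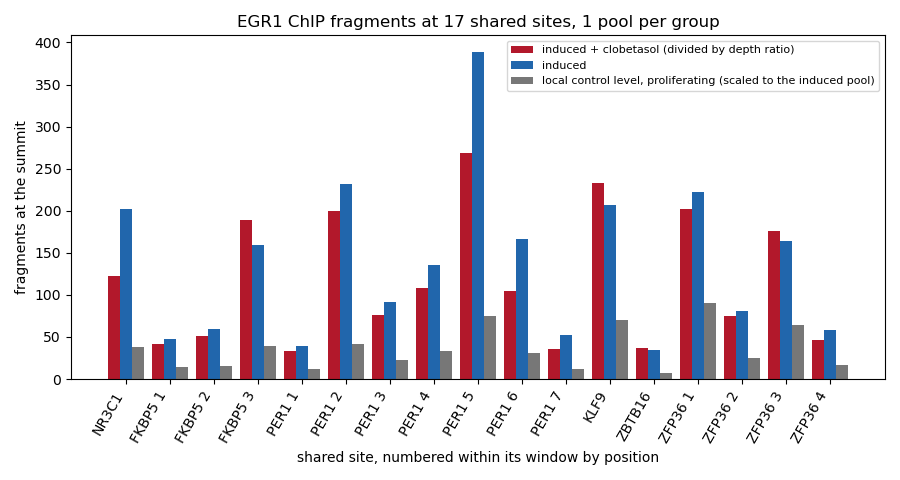
Bars give the fragments at the summit for the 17 shared sites, numbered by position within each window: induced with clobetasol divided by the depth ratio, induced, and the local level of proliferating cells scaled to the induced pool. Both treated bars stand above the proliferating level at every site, which the listing of a peak in both lists requires. The tallest bar is at the fifth PER1 site, with 389 fragments in the induced pool.

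NR3C1 encodes the glucocorticoid receptor itself, and its window held the site with the lowest ratio of the 17. The peak at chromosome 5, 142782962 to 142784434, had 149 fragments in the clobetasol pool and 202 in the induced pool, over a proliferating level of 37.5 on the scale of the induced pool. The ratio was 0.607 (exact 95% interval 0.488 to 0.754; exact binomial test, adjusted p = 0.000233). This is a pileup 39.3% lower with clobetasol, and the site stood at percentile 6.53 in the order of ratios of all shared sites. The median ratio of all shared sites was itself below 1, at 0.799. Without division by the depth ratio, the NR3C1 ratio was 0.738 and the site was not called (exact binomial test, adjusted p = 0.127). The authors' fold at the site was 3.18 in the clobetasol list and 5.27 in the induced list. The induced peak was broad, at 1473 bp against a median of 423 bp over its list.

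A weaker NR3C1 peak was listed in induced cells alone, at 142781966 to 142782222. It had a fold of 2.62 and a −log10 q of 5.70, close to the lowest of the list, 5.00. It held 45 fragments, and an unchanged pileup would give 54.7 in the deeper clobetasol pool, where the lowest listed count at a like control level was 49. These counts lie only a few fragments apart.

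FKBP5 encodes a co-chaperone of HSP90 that lowers the affinity of the receptor for its ligand, and is itself strongly induced by glucocorticoids. Its window held the site with the highest ratio of the 17, at chromosome 6, 35699138 to 35700015, with 229 fragments in the clobetasol pool and 159 in the induced pool. The ratio was 1.19 (0.964 to 1.46), which did not pass the exact binomial test against equality (adjusted p = 0.221). After division by the depth ratio, pileups at shared sites were lower with clobetasol in general, at a median ratio of 0.799. Without that division the median was 0.971. The median factor on fragments above the control level, also depth-scaled, was 0.735. Set against that common factor, the site passed as higher (exact binomial test, adjusted p = 0.0190), as did 0.719% of all shared sites. In the order of ratios it stood at percentile 97.3. The order of sites does not depend on the depth ratio, which is the same for all. The test against the common factor was added after the values were seen.

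The authors' fold at this FKBP5 site was 4.94 in the clobetasol list, at percentile 95.8 of that list by fold, and 3.98 in the induced list, at percentile 63.6. It was the FKBP5 site with the most signal in both lists. A clobetasol peak whose summit lay 4025 bp away, at 35695607 to 35696119, had 41 fragments and a fold of 3.65 and no induced counterpart. An unchanged pileup there would give 33.7 fragments in the induced pool, where the lowest listed at a like control level was 29.

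The remaining FKBP5 sites had ratios near the median of all shared sites. At 35632751 to 35633015 there were 50 fragments in the clobetasol pool and 48 in the induced pool (ratio 0.857, 0.565 to 1.3). At 35656127 to 35657114 there were 62 and 59 (ratio 0.865, 0.596 to 1.26). Neither differed from equality beyond counting error. The 3 shared sites are widely spaced, with 23922 and 42940 bp between successive summits in the induced list.

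PER1 encodes a repressor of the circadian clock and is a rapid target of the glucocorticoid receptor. Its window, on chromosome 17, held 7 of the 17 shared sites. All 7 had a ratio below 1, from 0.626 to 0.862, as did 87.4% of all shared sites. Without division by the depth ratio, the sites at 8021394, 8054395 and 8055629 had ratios of 1.03, 1.05 and 1. The remaining PER1 ratios then ran from 0.760 to 0.963. Within the window 4 sites lay in a tight group, with summits 1200, 1895 and 2127 bp apart in the induced list.

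The strongest of these, at 8059550 to 8060006, had 326 fragments in the clobetasol pool and 389 in the induced pool, over a proliferating level of 75.0. The ratio was 0.690 (0.594 to 0.801; exact binomial test, adjusted p = 7.66e-05). Its −log10 q of 138.3 in the induced list was at percentile 99.6. The site at 8066088 to 8066577 had 127 fragments in the clobetasol pool and 167 in the induced pool, a ratio of 0.626 (0.493 to 0.793; exact binomial test, adjusted p = 0.00153). These were the PER1 sites called lower in the clobetasol pool, and without division by the depth ratio neither was called (exact binomial test, adjusted p = 0.252 and 0.265). Against the common factor on the excess, neither of them nor the NR3C1 site passed the exact binomial test (adjusted p = 0.600, 0.539 and 0.344); 0.201% of all shared sites passed as lower.

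The PER1 site with the highest fold, at 8054395 to 8054830, had 243 fragments in the clobetasol pool and 232 in the induced pool, with a ratio of 0.862 (0.717 to 1.04). Its fold was 4.64 in the clobetasol list and 5.50 in the induced list. At 8055629 to 8055984 there were 92 fragments in each pool, and at 8057442 to 8057849 there were 131 with clobetasol and 136 without it. Their ratios were 0.823 and 0.793, with intervals that include 1. The outer sites were weaker: 40 fragments with clobetasol and 39 without it at 8021394 to 8022097, and 44 and 52 at 8067597 to 8067986, with intervals that also include 1.

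Peaks listed on 1 side only were also found in the PER1 window. The peak at 8029748 to 8030126 was listed with clobetasol alone, with 34 fragments and a −log10 q of 6.02. An unchanged pileup there would give 28.0 fragments in the induced pool, where the lowest listed at a like control level was 28. In induced cells alone there were peaks at 8025308 to 8025837, with 48 fragments and a −log10 q of 15.2, and at 8042111 to 8042457, with 39 fragments and a −log10 q of 7.78. The first of these is the 1 induced peak in the windows with a −log10 q over 10 and no counterpart. An unchanged pileup would give it 58.3 fragments in the clobetasol pool, against 35 for the lowest listed at a like control level. For the peak at 8042111 these counts were 47.4 and 38.

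**Figure D3:**
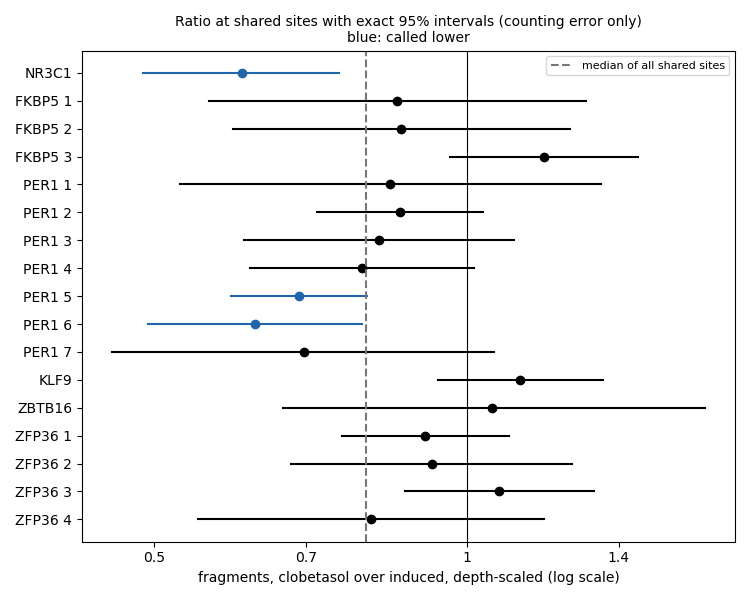
Depth-scaled ratio of fragments, induced with clobetasol over induced, at the 17 shared sites on a log scale, with exact 95% intervals for counting error. Intervals of 3 sites, 1 at NR3C1 and 2 at PER1, lie below 1 and none lies above; the dashed line is the median of all shared sites, 0.799.

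DUSP1 encodes a phosphatase that inactivates MAP kinases and is induced both by these kinases and by glucocorticoids. Its window had a weak peak in each list, and they did not overlap. With clobetasol the peak at chromosome 5, 172192145 to 172194173, was 2029 bp wide, with 45 fragments, a fold of 2.69 and a −log10 q of 5.88. In induced cells the peak at 172197403 to 172197639 was 237 bp wide, with 46 fragments, a fold of 3.06 and a −log10 q of 8.03. Their summits lay 5182 bp apart, so no ratio can be given. Unchanged pileups would give 37.0 fragments in the induced pool at the first, where the lowest listed at a like control level was 37, and 55.9 in the clobetasol pool at the second, where it was 45.

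ZFP36 encodes tristetraprolin, which binds AU-rich elements of messenger RNAs, many of them for inflammatory proteins, and leads to their decay. Its window on chromosome 19 held 4 shared sites with low folds on high control levels. At 39893089 to 39893446 there were 246 fragments in the clobetasol pool and 222 in the induced pool, over a proliferating level of 90.5 (ratio 0.912, 0.758 to 1.10). At 39900274 to 39900539 there were 214 and 164, a ratio of 1.07 (0.872 to 1.32). The other two, at 39897275 to 39897576 and at 39903085 to 39903410, had ratios of 0.925 and 0.809. None of the 4 differed from equality beyond counting error.

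The fold at the first ZFP36 site was 2.19 in the clobetasol list, at percentile 3.85, and 2.44 in the induced list, at percentile 4.02. By −log10 q it stood at percentiles 74.5 and 73.8, so that a small fold was listed on many fragments. Peaks at 39894457 to 39894779 and at 39898486 to 39898817 were listed in induced cells alone, with 59 and 44 fragments and −log10 q of 7.61 and 8.53. Unchanged pileups would give 71.7 and 53.5 fragments in the clobetasol pool, where the lowest listed at like control levels were 60 and 41.

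KLF9 encodes a Krüppel-like zinc finger factor induced by glucocorticoids in many cell types. In induced cells its window on chromosome 9 held 1 peak of 2074 bp, at 73033895 to 73035968. With clobetasol the same stretch was listed as 2 peaks, at 73034142 to 73034782 with 283 fragments and at 73035026 to 73035951 with 99. The induced summit, with 207 fragments over a level of 70.0 in proliferating cells, lay 253 bp from the first and 983 bp from the second. Paired with the nearer summit, the ratio was 1.13 (0.937 to 1.35), which did not pass the exact binomial test (adjusted p = 0.355). The control level differed too between these summits, at 10.8 times the lowest of its list for the induced one and 13.0 times for the clobetasol one, so the pair need not describe 1 position.

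The second KLF9 peak with clobetasol had a fold of 4.74, at percentile 94.6 of its list, on a control level of 2.54 times the lowest. Another clobetasol peak at 73028253 to 73028684, with 48 fragments and a −log10 q of 7.24, had no induced counterpart. An unchanged pileup there would give 39.5 fragments in the induced pool, where the lowest listed at a like control level was 37.

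ZBTB16, also known as PLZF, encodes a transcriptional repressor that is among the genes most strongly induced by glucocorticoids in several cell types. Its window on chromosome 11 held 1 shared site, at 114010444 to 114010712, with 45 fragments in the clobetasol pool and 35 in the induced pool. The ratio was 1.06 (0.665 to 1.70; exact binomial test, adjusted p = 0.900). The fold was 4.74 in the clobetasol list and 4.71 in the induced list, on a proliferating level close to the lowest, so this was a clear but shallow site in both.

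**Figure D4:**
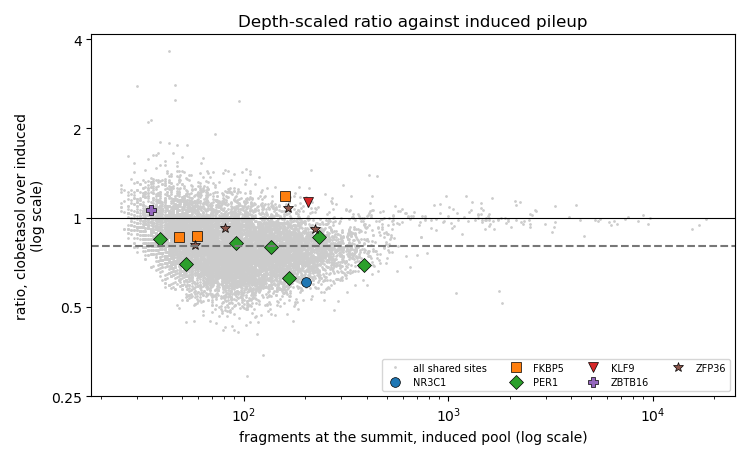
Depth-scaled ratio of clobetasol to induced fragments against fragments in the induced pool, both on log scales, for all 10429 shared sites in grey and the 17 sites of the windows as symbols; the dashed line is the median ratio, 0.799, and the solid line equality. The FKBP5 site with 159 induced fragments stands at percentile 97.3 in the order of ratios, and the NR3C1 site with 202 at percentile 6.53.

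The windows of 9 other genes known to be induced by glucocorticoids, set at approximate hg19 positions, gave similar counts. These were TSC22D3, SGK1, NFKBIA, ERRFI1, CRISPLD2, ANGPTL4, TNFAIP3, BIRC3 and CDKN1C. They held 17 peaks with clobetasol and 21 without it, and none was without a peak. Of the 21 induced peaks, 16 overlapped a clobetasol peak (76.2%, against 64.0% of all induced peaks), at a median ratio of 0.848 (range 0.649 to 1.34). The exact binomial test called 2 of the 16 lower and 0 higher, where 22.6% and 0.384% of all shared sites were. Against the common factor, 0.719% of all shared sites passed as higher and 0.201% as lower. The 1 site of the 16 called against the common factor, at ANGPTL4, was higher and had 287 fragments in the clobetasol pool and 187 in the induced pool, a ratio of 1.26 (1.05 to 1.53).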

How the data were processed

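Per the submitters' processing notes, the authors used MACS2 2.1.1.20160309, SAMtools 1.3.1, BWA, cutadapt 1.15, bcl2fastq and FastQC 0.11.5, with the hg19 build; settings of the caller: not given in the sources used here. The authors deposited 2 peak lists, each made from a pool of 3 treated libraries against the pool of proliferating EGR1 libraries, per the peak names. Per the labels, proliferating replicates 2 and 3 have library names that repeat 1 sample name, so 3 distinct samples in that pool are not certain. The deposited fold is a ratio, given with −log10 p and −log10 q for the summit. The deposited score is 10 times the −log10 q without its decimals and was not used. The lowest −log10 q was 5.00 in both lists. Peak numbers run to 26677 for 12340 listed peaks with clobetasol and to 52393 for 16285 in induced cells, so peaks may have been removed after calling, and a peak that is not listed is not known to be absent.

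Fold and −log10 p were solved for the treated fragments and the control level, taking the fold as (treated + 1) over (control + 1) and p as a Poisson tail. Fragments came out within 0.05 of a whole number for 99.5% of clobetasol and 99.6% of induced peaks, and for all 45 peaks in the windows. Control levels fell on steps of 0.670 with clobetasol and 0.552 in the induced list, the scaling of the proliferating pool; their ratio, 1.21, was used as depth ratio. The median summit held 75 fragments with clobetasol and 64 in the induced pool; library totals were not analysed here. A peak of each list was shared at an overlap of 1 bp or more and paired with the nearest summit. Intervals cover counting error only. Sites were tested by an exact binomial test (two-sided) with Benjamini-Hochberg adjustment at 0.05 over all shared sites, after a check on simulated data. The simulated counts had counting error only, at the same depth ratio. Most simulated sites were left unchanged, whereas the ratio was below 1 at 87.4% of the real shared sites. The check therefore does not cover such a general shift, the spread between replicates or differences in immunoprecipitation yield. Beside peaks without a counterpart, a like control level is one within 5%.

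All peaks of the 7 windows are named; promoters were to be printed where they hold GCGNGGGCG and the window has a peak, and that of PER1 was added after its values were seen. Windows of the other 9 genes were set from general knowledge of hg19 without an annotation. Members and lists were chosen with earlier results of these data known. Python 3.11.15, NumPy 2.4.6, SciPy 1.17.1 and pandas 2.3.3 were used.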

Additional observations from a re-analysis of the deposited data

How the results depend on the processing

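In 105 of 143 values from alternatives, for 38 results, neither call nor direction changed, or the value stayed near the main one. That count is not a measure of robustness. Alternatives that left other sites out kept each site's ratio and changed only the adjustment. A site that was not called before or after also counted as unchanged. The depth ratio mattered most: with no depth scaling the median ratio at the 17 shared sites was 1.04, against 0.971 over all shared sites, 0 sites were called lower and 2 higher (FKBP5, ratio 1.44, and KLF9, ratio 1.37), and ratios turned to 1.03 and 1.05 at the first 2 PER1 sites, 1.11 and 1.12 at the first 2 ZFP36 sites, and 1.04 and 1.05 at the first 2 FKBP5 sites. The scaling itself gives this shift. How many of all shared sites were called with no depth scaling was not counted. The count called lower was 1 of 9 sites when those with a control level over 5 times the lowest were left out, and 1 of 10 without the PER1 window, by construction in both cases. With a −log10 q of at least 10, 14 of the 22 clobetasol peaks in the windows were left. The share of induced peaks with a counterpart was 93.8% with that bound in the induced list, against 80.5% over all such peaks, and 88.9% with lists of equal length, against 76.5%, where weak peaks are removed. The NR3C1 site and the 2 PER1 sites called lower lost their call against the common factor and without depth scaling. Relative to that factor, ratios turned to 1.04, 1.10 and 1.03 at the first 3 PER1 sites, 1.08 and 1.13 at the first 2 ZFP36 sites, and 1.06 and 1.08 at the first 2 FKBP5 sites, because the value set as equality is lower. No replicate could be left out, because the lists hold pools only. No paired analysis was possible because the lists carry no replicate values. Shallow sites, with about 35 to 60 fragments, have intervals too wide to show a change of the general size.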

Other observations

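Among the other 9 glucocorticoid-induced genes, the highest induced fold was at NFKBIA, which encodes an inhibitor of NF-κB. The site (chromosome 14, 35872900 to 35873900) was listed at a fold of 4.56 with clobetasol and 7.0 in induced cells, at percentile 98.4 of the induced list. It had 67 fragments in the clobetasol pool and 85 in the induced pool, a ratio of 0.649 (0.464 to 0.904; exact binomial test, adjusted p = 0.0420). At SGK1, a kinase of ion transport and cell survival, the site at chromosome 6, 134495974 to 134496335, had 177 fragments with clobetasol and 194 without it, a ratio of 0.751 (0.609 to 0.925; exact binomial test, adjusted p = 0.0348). These were the 2 sites of the 16 called lower, where 22.6% of all shared sites were. Against the common factor on the excess, neither passed the exact binomial test (adjusted p = 0.866 at NFKBIA and 0.929 at SGK1).

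ERRFI1, an inhibitor of the EGF receptor, had 76 fragments in the clobetasol pool and 91 in the induced pool at chromosome 1, 8085627 to 8087010, a ratio of 0.687 (0.500 to 0.943) that did not pass after adjustment (exact binomial test, adjusted p = 0.0626). ANGPTL4, an inhibitor of lipoprotein lipase, had 5 shared sites with ratios on both sides of 1. Its strongest, at chromosome 19, 8428566 to 8429155, did not pass against equality (adjusted p = 0.0534) and passed as higher than the common factor on the excess (adjusted p = 0.000239), both by the exact binomial test. TSC22D3, which encodes the glucocorticoid-induced leucine zipper, had 96 fragments with clobetasol and 82 without it at chromosome X, 107020380 to 107020705, a ratio of 0.964 (0.710 to 1.31).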
